A study of Mus musculus with 6 samples.

Results

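Of 9 acute phase genes considered in the inguinal fat of mice that gained much or little weight on a high-fat diet, Lbp and Saa3 had higher signals in high gainers than in low gainers, Lcn2 had a lower signal, and Hp, Cp and Hpx differed by less than 1.5-fold. Lbp, which encodes the protein that binds bacterial lipopolysaccharide and hands it to its receptors, was 2.94-fold higher in high gainers (log2 1.56, SE 0.09, n = 3 arrays per pool). Saa3, which encodes a serum amyloid A that mice make largely outside the liver, was 2.17-fold higher (log2 1.12, SE 0.13). Lcn2, which encodes lipocalin 2, a protein that sequesters the iron carriers of bacteria, was 2.47-fold lower in high gainers (log2 -1.30, SE 0.12). The members are the genes Lbp, Saa3, Lcn2, Hp, Orm1, Cp, Itih4, Ptx3 and Hpx, each read from the probes that the array annotation gives to that gene alone, out of 13840 genes named in this way. The list was chosen by gene name with the signals of these same arrays known. The contrast between the pools therefore describes the members and is not a test of them, and no p-value is given for a member.

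The acute phase response is the change in circulating proteins that follows infection, injury or inflammation. Interleukin 1, tumor necrosis factor and interleukin 6 act on the liver through NF-kB, C/EBP and STAT3, so that proteins such as serum amyloid A, haptoglobin and orosomucoid increase while albumin and transthyretin decrease. Several of these proteins are also made by adipocytes and by other cells of fat, haptoglobin, lipocalin 2 and serum amyloid A 3 among them, and inguinal fat, a subcutaneous depot of the mouse, also holds vessels and stroma and, when dissected, can include its lymph node and neighboring glandular epithelium or muscle.

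The samples were 3 arrays of 1 pool of inguinal fat RNA from 8 high gainers and 3 arrays of 1 pool from 8 low gainers. All mice were male C57BL/6J, carried no engineered allele, were housed singly and were fed the high saturated fat diet D12331 for 4 weeks from 8 weeks of age. The triplicate arrays repeat the same RNA, so that n counts arrays, p-values measure the technical spread between arrays, and every difference holds for these 2 pools and not for mice. Values are quantile normalized signal intensities on a linear scale, and a blank means that an array has no value for that probe. Of 33012 probes, between 18018 and 20605 were measured per array in high gainers and between 18444 and 19790 in low gainers, and 15821 were measured on all 6 arrays. Across these 15821 probes, r was 0.988 to 0.994 within a pool and 0.972 to 0.980 between the pools. Of 17 adipocyte markers, 12 had a named probe and all 12 had values on all arrays. This is a weak check of the tissue label, since 8596 of 13840 named genes had values on all arrays. Adipoq, Lipe, Lpl, Cfd and Acsl1 had no named probe.

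Of the 9 members, 7 had a probe of their own and 6 had values on all arrays. Itih4, which encodes a heavy chain of the inter-alpha-trypsin inhibitor family, has 1 probe and was blank on all 6 arrays. Orm1, which encodes an orosomucoid, shares its only probe with Orm2, and no level was taken from it. Ptx3, which encodes a long pentraxin, has no named probe and was not analysed here. A probe was called where the limma adjusted p over all 15821 probes was under 0.01 and the ratio reached 1.5-fold. By this rule 2 of the 6 measured members were called higher in high gainers, where 2.50% of all probes were, and 1 was called lower, where 3.99% of all probes were. The 3 high-gainer arrays lay above the 3 low-gainer arrays for 4 members, as for 20.3% of all probes, and below them for 2 members, as for 16.3% of all probes. Nothing is read from these shares, since the members were selected on this contrast.

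Lbp read 484421, 503140 and 507658 on the high-gainer arrays, against 169667, 159863 and 178976 on the low-gainer arrays. The groups were far apart, with the lowest high-gainer array 2.71-fold above the highest low-gainer array. The means were 498406 ± 12321 in high gainers and 169502 ± 9558 in low gainers (SD, n = 3 arrays each), which is a coefficient of variation of 2.47% in high gainers and 5.64% in low gainers, against medians over all probes of 9.12% in high gainers and 10.4% in low gainers. Its probe was brighter than 94.5% of tested probes, and 25 probes had a larger ratio of high over low gainers. Leaving out each array in turn gave log2 ratios between 1.52 and 1.60. Because the tissue was measured in bulk, fewer cells of a type and less RNA per cell cannot be told apart for this or any other gene here.

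Saa3 had signals of 8653, 11380 and 10090 in high gainers, against 4434, 4424 and 4950 in low gainers. All high-gainer arrays were above all low-gainer arrays, and the high-gainer arrays spread more (13.59% against 6.54%). The means were 10041 ± 1364 in high gainers and 4603 ± 301 in low gainers (SD, n = 3 arrays each). Its probe was dim, at the 30.1 percentile of tested probes by mean signal. Without any 1 array the log2 ratio was between 1.02 and 1.22, and 90 probes had a larger ratio.

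Lcn2 went the other way. It read 3790, 4891 and 4284 on the high-gainer arrays and 10029, 11077 and 10716 on the low-gainer arrays, so that the lowest low-gainer array was 2.05-fold above the highest high-gainer array. The means were 4322 ± 551 in high gainers and 10607 ± 532 in low gainers (SD, n = 3 arrays each). This probe was also dim, at the 30.0 percentile, and 246 probes had a lower ratio. Its log2 ratio was between -1.40 and -1.21 without any 1 array.

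**Figure D1:**
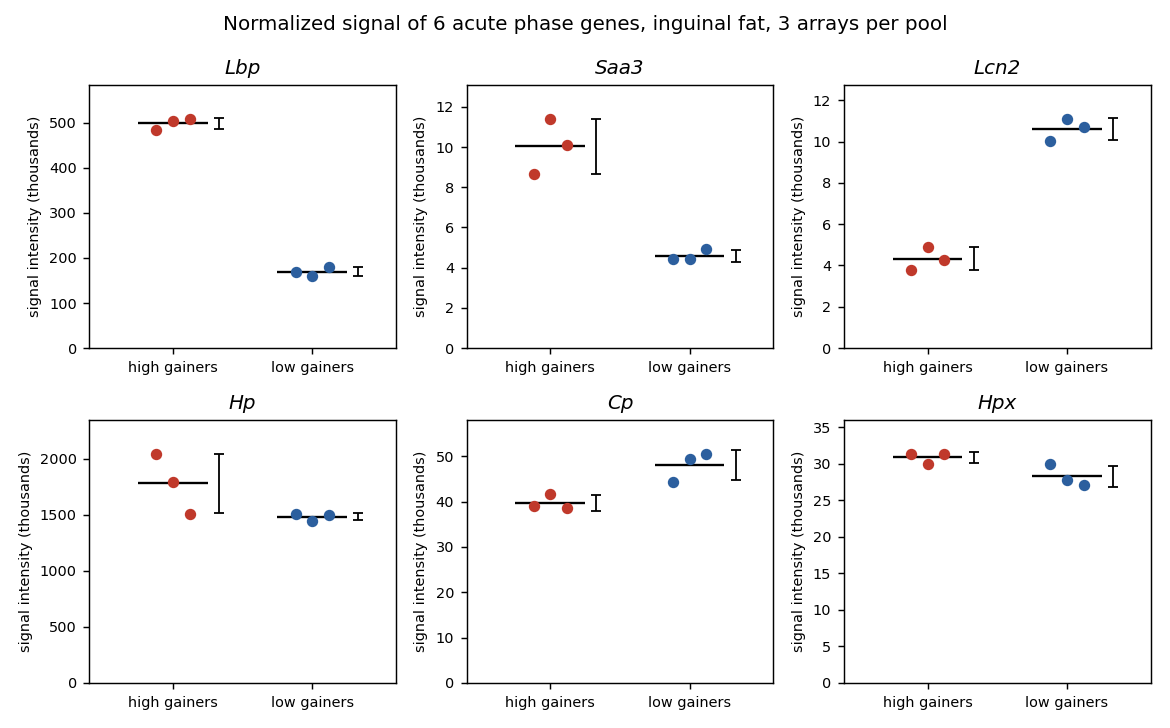
Quantile normalized signal intensity (in units of 1000, linear scale from 0) of the 6 measured acute phase genes on each array, high gainers left and low gainers right in each panel. Points are arrays, horizontal lines the mean of 3 arrays, and brackets the mean ± 1 SD. Lbp and Saa3 are higher in high gainers on every array, Lcn2 is lower on every array, and for Hp, Cp and Hpx the groups lie close together.

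Hp, which encodes haptoglobin, the plasma protein that captures free hemoglobin, was among the brightest probes of this fat, with 2044396, 1790444 and 1510138 in high gainers and 1504283, 1448404 and 1497354 in low gainers. The high-gainer arrays spread widely, and their lowest was 1.004-fold above the highest low-gainer array. The ratio was 1.19-fold (log2 0.25, SE 0.13) and was not called. On these arrays the highest 437 ranks hold the same values on every array, so that the signal of Hp is set by its rank alone, which was 8, 22 and 56 from the top in high gainers and 57, 65 and 58 in low gainers.

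Cp, which encodes ceruloplasmin, the copper protein that oxidizes ferrous iron, read 38945, 41637 and 38545 in high gainers against 44248, 49370 and 50504 in low gainers. The groups did not overlap, but the gap was 1.06-fold and the difference of 1.21-fold (log2 -0.27, SE 0.10) was not called. Hpx, which encodes hemopexin, the plasma carrier of free heme, read 31348, 30027 and 31363 in high gainers against 29970, 27745 and 27159 in low gainers. That ratio was 1.09-fold (log2 0.13, SE 0.09) with a gap of 1.002-fold, and it was not called. The 3 plasma carriers of hemoglobin, heme and copper thus stayed within 1.21-fold, while Lbp, Saa3 and Lcn2 differed by 2.17-fold or more.

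The adipocyte markers were higher by a median log2 of 0.20 in high gainers, where the median over all probes was 0.03. They did not move as 1 group, and their log2 ratios ran between -0.30 and 0.83. Their summed signal was 8095416 to 8564720 on the high-gainer arrays and 7774980 to 7954561 on the low-gainer arrays, and 1 of 12, Lep, which encodes leptin, was called higher (log2 0.83), a call kept in 2 of the 6 fits that left out 1 array. When every ratio was taken relative to that change, a shift of -0.20, the log2 ratio was 1.36 for Lbp, 0.92 for Saa3, -1.50 for Lcn2, 0.06 for Hp, -0.47 for Cp and -0.07 for Hpx. Lbp, Saa3 and Lcn2 kept their calls, and the direction of Hpx turned. Over all probes, 38.5% of the called probes were higher in high gainers before the shift and 13.4% after it.

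**Figure D2:**
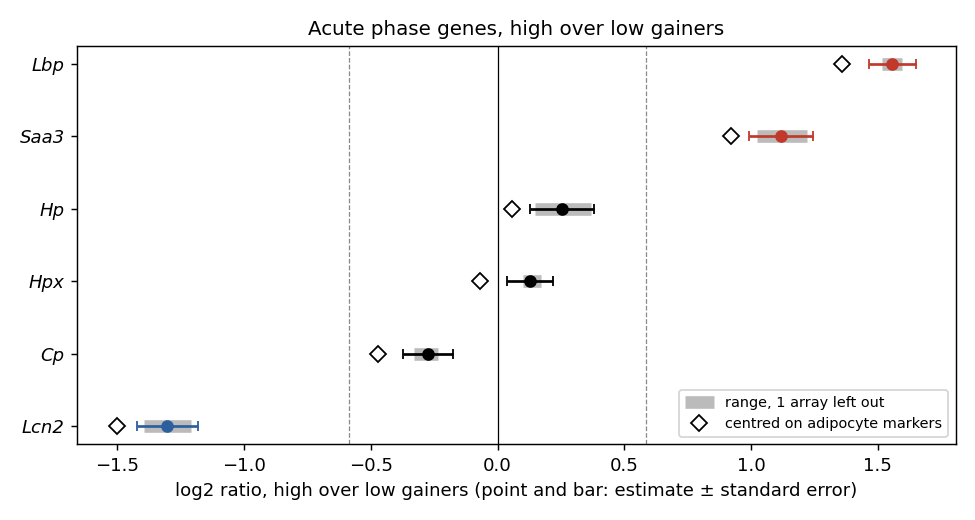
Log2 ratio of high over low gainers for the 6 measured acute phase genes, with the standard error of the fit as bars and, in gray, the range when 1 array is left out. Open diamonds are the ratios relative to the median change of 12 adipocyte markers, and dashed lines mark 1.5-fold. Lbp and Saa3 lie right of the upper line, Lcn2 lies left of the lower line, and Hp, Hpx and Cp lie between the lines.

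The windows around the start sites of Saa3 and Lcn2 are shown because both genes are targets of the factors that drive the acute phase response and because their signals moved in opposite directions. RefSeq windows (GRCm38.p6, 250 bases before to 50 after a start) were at hand for 6 of the 9 members. The Saa3 window is chr7:46715627-46715926 and the Lcn2 window is chr2:32387690-32387989, both on the minus strand. Capitals mark matches to the C/EBP pattern TTNNGNAA or to the NF-kB pattern (GGG, any 5 bases, CC) on either strand, and neither window has a match to the STAT pattern TTCNNNGAA.
Saa3: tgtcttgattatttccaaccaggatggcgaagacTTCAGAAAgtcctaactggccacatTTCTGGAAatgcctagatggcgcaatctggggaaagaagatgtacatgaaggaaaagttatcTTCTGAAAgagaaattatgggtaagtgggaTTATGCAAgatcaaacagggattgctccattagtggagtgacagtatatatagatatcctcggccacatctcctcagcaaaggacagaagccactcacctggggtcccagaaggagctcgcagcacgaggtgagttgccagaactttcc
Lcn2: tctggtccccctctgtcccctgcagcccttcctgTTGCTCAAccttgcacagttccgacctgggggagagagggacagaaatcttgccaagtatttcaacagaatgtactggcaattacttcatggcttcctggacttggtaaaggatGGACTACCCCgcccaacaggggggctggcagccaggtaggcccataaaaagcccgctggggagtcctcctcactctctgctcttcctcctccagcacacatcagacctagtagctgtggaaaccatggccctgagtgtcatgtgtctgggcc
Saa3 has 4 C/EBP matches, which begin 216, 191, 129 and 99 bases before the start, and 0 NF-kB matches. Lcn2 has 1 C/EBP match, 216 bases before the start, and 1 NF-kB match, GGACTACCCC, which begins 102 bases before it, and no match overlaps another. Of 32851 such windows of 300 bases, 40.7% hold the C/EBP pattern, 50.8% the NF-kB pattern and 8.3% the STAT pattern, so that a match is a common feature. Among the other members, Cp has 1 C/EBP match in each of its 2 windows and 1 NF-kB match in the second, Hpx has 2 C/EBP matches alone, Itih4 has 1 STAT and 2 NF-kB matches alone, and Ptx3 has 1 C/EBP match and 2 NF-kB matches that overlap each other. The letters are a description of these windows and not evidence of binding.

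The other acute phase proteins did not show a comparable difference. Of 23 further reactants, 8 were measured on all arrays, and 0 were called in either direction by limma, while the unadjusted p was under 0.05 for 1 that was higher and 1 that was lower. Their median log2 ratio was 0.17, against 0.03 over all probes. The largest was Crp, which encodes C-reactive protein, with 5336, 5070 and 6463 in high gainers and 3792, 2707 and 5711 in low gainers, groups that overlap (log2 0.53, adjusted p = 0.214). The smallest was Fgg, a fibrinogen chain, with 17780, 17613 and 18622 in high gainers and 19716, 22390 and 25706 in low gainers (log2 -0.32, adjusted p = 0.113). Saa2, the liver relative of Saa3, overlapped between the pools, with 2827, 2156 and 3508 in high gainers and 2145, 2896 and 3202 in low gainers. Apcs, which encodes serum amyloid P, and Il1rn, the interleukin 1 receptor antagonist, were blank on all arrays.

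Among the negative acute phase proteins, those that decrease in plasma during the response, 2 of 6 measured were called higher in high gainers and 0 lower, with a median log2 of 0.26. Alb, which encodes albumin, read 207174, 207667 and 202939 in high gainers against 148138, 121979 and 139835 in low gainers (log2 0.60, SE 0.10, limma adjusted p = 0.00894). Ttr, which encodes the thyroxine and retinol transporter transthyretin, read 88800, 88118 and 91319 in high gainers against 53300, 60216 and 56674 in low gainers (log2 0.66, SE 0.09, limma adjusted p = 0.00353). Both were higher on every high-gainer array. Of the 6 fits that left out 1 array, 0 kept the call of Alb and 1 kept that of Ttr, with the highest adjusted p without high-gainer array 1 (0.0443 for Alb and 0.0219 for Ttr), and both calls were lost relative to the adipocyte markers.

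Lbp, Alb and Ttr are best known as hepatocyte products, and the hepatocyte markers, which include Alb and Ttr, were read beside Lbp. Of 13 such markers 7 were measured on all arrays, 2 were called higher (Alb and Ttr) and 0 lower, and the median log2 was 0.46. Their summed signal was 419344 to 433457 on the high-gainer arrays and 291734 to 294576 on the low-gainer arrays. Without Alb and Ttr it was 123559 to 139199 in high gainers and 93138 to 109539 in low gainers, and none of these other 5 markers was called by limma, while 4 of the 7 were higher at an unadjusted p below 0.05. Relative to the adipocyte markers, 0 of the 7 were called. Apoa2, an apolipoprotein of high density lipoprotein, read 85398, 81552 and 93094 in high gainers and 59303, 68570 and 61882 in low gainers (log2 0.46, adjusted p = 0.0249), and was not called. Apoa1, the main protein of that particle, had a log2 ratio of -0.03, and Fga, a fibrinogen chain, had a value on 1 array of each pool (2144 in high gainers, 1479 in low gainers). The part of these markers in the difference of Lbp was not tested.

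The named probes whose profile lay closest to that of Lbp, by the Euclidean distance between log2 levels each centered on its own 6-array mean, over 8883 named probes, were Cyp8b1, Cyp2d9, Tfpi2, Cyp2a4 and Slc16a12. Cyp8b1, the sterol 12-alpha-hydroxylase of bile acid synthesis, was closest, at 0.20, and read 7433, 7819 and 7409 in high gainers against 2565, 2285 and 2341 in low gainers. The log2 ratios were 1.66 for Cyp8b1, 1.60 for Cyp2d9, 1.55 for the protease inhibitor gene Tfpi2, 1.60 for Cyp2a4 and 1.49 for the transporter gene Slc16a12. For Lcn2 the closest were Klrd1 (a receptor of natural killer cells, at 0.10), Pik3ap1 (a signaling adaptor of B cells), Clec9a (a receptor of dendritic cells), Arhgap45 and Bend5, with log2 ratios of -1.27, -1.21, -1.24, -1.22 and -1.22. Klrd1 read 10177, 13373 and 12064 in high gainers against 25832, 30396 and 29187 in low gainers. With 6 arrays in 2 pools, closeness mostly restates a similar ratio.

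**Figure D3:**
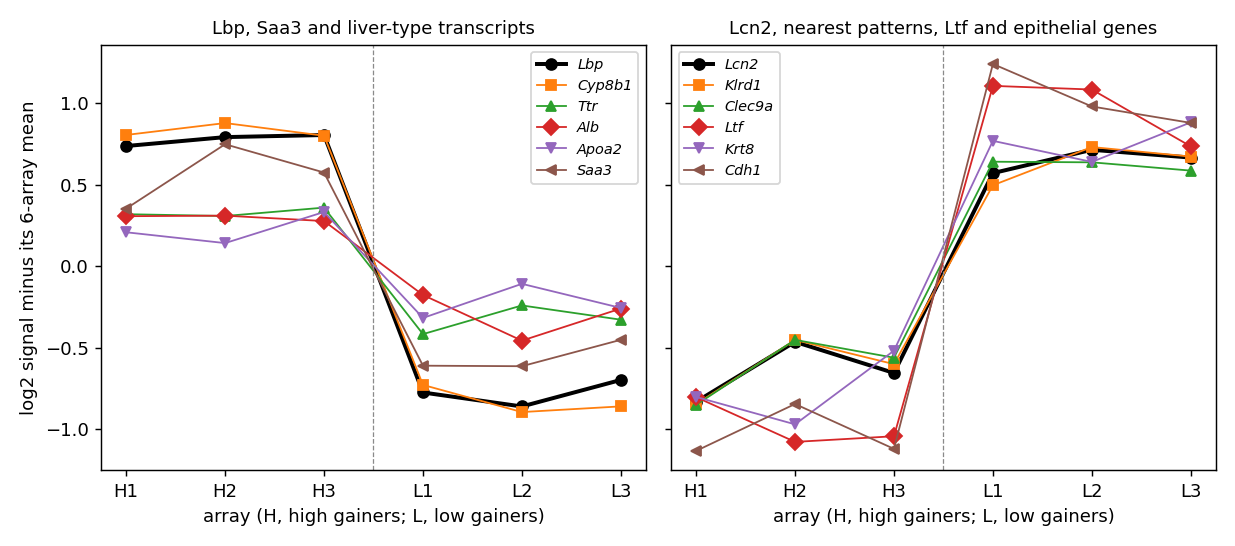
Log2 signal on each array (H1 to H3, high gainers; L1 to L3, low gainers) minus the 6-array mean of the same gene. Left, Lbp and Saa3 with the liver-type transcripts Cyp8b1, Ttr, Alb and Apoa2; right, Lcn2 with Klrd1, Clec9a, Ltf and the epithelial genes Krt8 and Cdh1. Lines join the points of a gene and imply no order. The genes shown are a selection, and each keeps its pools apart. The hepatocyte markers Apoa1, Ahsg and Tat and the epithelial markers Cldn3 and Cldn4, whose pools overlap, are not shown.

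The measured genes that act with Lbp in lipopolysaccharide recognition showed no increase like that of Lbp. Of 16 genes 12 had a named probe, and the receptor gene Tlr4 and the adaptor gene Myd88 were not among them. On all arrays 10 were measured, 0 were called higher and 2 were called lower, and the median log2 was 0.01. For 1 gene, Irak3, every high-gainer array lay above every low-gainer array (log2 0.47, limma adjusted p = 0.0418, not called), and for 3 genes below. Cd14, to which Lbp hands lipopolysaccharide, read 21223, 19532 and 19568 in high gainers and 19600, 18320 and 18214 in low gainers, which overlap (log2 0.10, limma adjusted p = 0.499). The 2 genes called lower encode the partners of 1 receptor complex that B cells carry. Cd180 read 3296, 2982 and 2316 in high gainers against 6982, 6351 and 5223 in low gainers (log2 -1.12, SE 0.17, limma adjusted p = 0.0045). Ly86 read 32977, 27269 and 30013 in high gainers against 48309, 59263 and 52348 in low gainers (log2 -0.82, SE 0.12, limma adjusted p = 0.0041). Each call was kept in 1 of the 6 fits that left out 1 array, with an adjusted p of up to 0.0201 for Cd180 without low-gainer array 2 and 0.018 for Ly86 without high-gainer array 2. The B lymphocyte markers moved with them, with 7 of 7 measured called lower, a median log2 of -1.52 and a summed signal of 110675 to 120640 in high gainers against 362719 to 382944 in low gainers, and their part in the lower Cd180 and Ly86 was not tested.

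Of 17 cytokines, receptors and kinases that set off the response, 7 were measured on all arrays and 0 were called by limma, while the unadjusted p was under 0.05 for 2 that were higher and 2 that were lower, with a median log2 of -0.07. The largest ratio was that of the tumor necrosis factor receptor gene Tnfrsf1a (log2 0.45, adjusted p = 0.0286) and the smallest that of Il1a, an interleukin 1 (log2 -0.37, adjusted p = 0.12). Il6 was blank on all arrays, and Il1b had 1 value, on a low-gainer array. Tnf read 625 and 1082 with 1 blank in high gainers, against 1700, 2177 and 1961 in low gainers, and was not tested for want of 1 value.

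Among 18 transcription factors and their inhibitors, 13 were measured, 0 were called higher and 2 lower, and the median log2 was -0.11. The unadjusted limma p was under 0.05 for 1 that was higher and 5 that were lower, with the 2 called genes among the 5. Socs1, an inhibitor of cytokine signaling, read 14676, 14141 and 14242 in high gainers against 21739, 21481 and 21422 in low gainers (log2 -0.59, SE 0.08, limma adjusted p = 0.00402), just past 1.5-fold. Relb, a subunit of NF-kB, read 8571, 8541 and 9017 in high gainers against 12684, 14590 and 12708 in low gainers (log2 -0.61, SE 0.10, limma adjusted p = 0.00652). Neither call held in any of the 6 fits that left out 1 array, with an adjusted p of up to 0.0231 for Socs1 and 0.0365 for Relb, both without high-gainer array 1. Stat3 (log2 -0.01) and the brightest probe of Cebpb (log2 -0.03), genes that carry the interleukin 6 signal to acute phase genes, were close to even. Another Cebpb probe (log2 0.18) and Cebpd (log2 0.25) were higher, Socs3 was lower (log2 -0.41), and none of these was called.

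Of 8 genes of the glucocorticoid response, which acts together with cytokines on acute phase genes, 6 were measured and 0 were called by limma (unadjusted p under 0.05 for 1 higher and 0 lower, median log2 0.14). The ratios ran between 0.32 for Hsd11b1, the enzyme that regenerates active glucocorticoid, and -0.10 for the kinase gene Sgk1. In iron and heme handling, 16 of 24 genes were measured, 0 were called higher and 1 lower, with a median log2 of 0.04. The 1 called was Ltf, which encodes lactotransferrin, another iron-binding defense protein, at 1891, 1563 and 1601 in high gainers against 7114, 7004 and 5498 in low gainers. It was 3.87-fold lower in high gainers (log2 -1.95, SE 0.14, limma adjusted p = 0.000252) and was called whichever array was left out, although its probe is among the dimmest 33.3%. The receptors of members that follow are from this list and were chosen after their values were seen. None was called, and each was higher on every high-gainer array, as were 20.3% of all probes. Cd14, which receives lipopolysaccharide from Lbp, overlapped between the pools. Slc22a17, described as a receptor of lipocalin 2, was 1.49-fold higher (log2 0.57, limma adjusted p = 0.00632), just under the fold limit. Cd163, the macrophage receptor of haptoglobin with hemoglobin, was 1.35-fold higher (log2 0.44, limma adjusted p = 0.0151). Lrp1, which encodes a receptor of hemopexin, was 1.39-fold higher (log2 0.48, limma adjusted p = 0.0161).

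Of 13 genes of the hyaluronan matrix, in which Ptx3 and relatives of Itih4 take part, 7 were measured, 1 was called higher and 0 lower, and the median log2 was 0.26. The unadjusted limma p was under 0.05 for 4 that were higher and 2 that were lower. Without a call, Ambp (log2 0.62) and Vcan (log2 0.60) were higher on every high-gainer array, and Cd44 (log2 -0.50) was lower on every one. Itih5, a relative of Itih4, read 33606, 31408 and 34767 in high gainers against 17183, 20713 and 19524 in low gainers (log2 0.80, SE 0.11, limma adjusted p = 0.0028). Every high-gainer array was above every low-gainer array, and the call was kept in 2 of the 6 fits that left out 1 array (adjusted p = 0.0185 without high-gainer array 1).

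**Figure D4:**
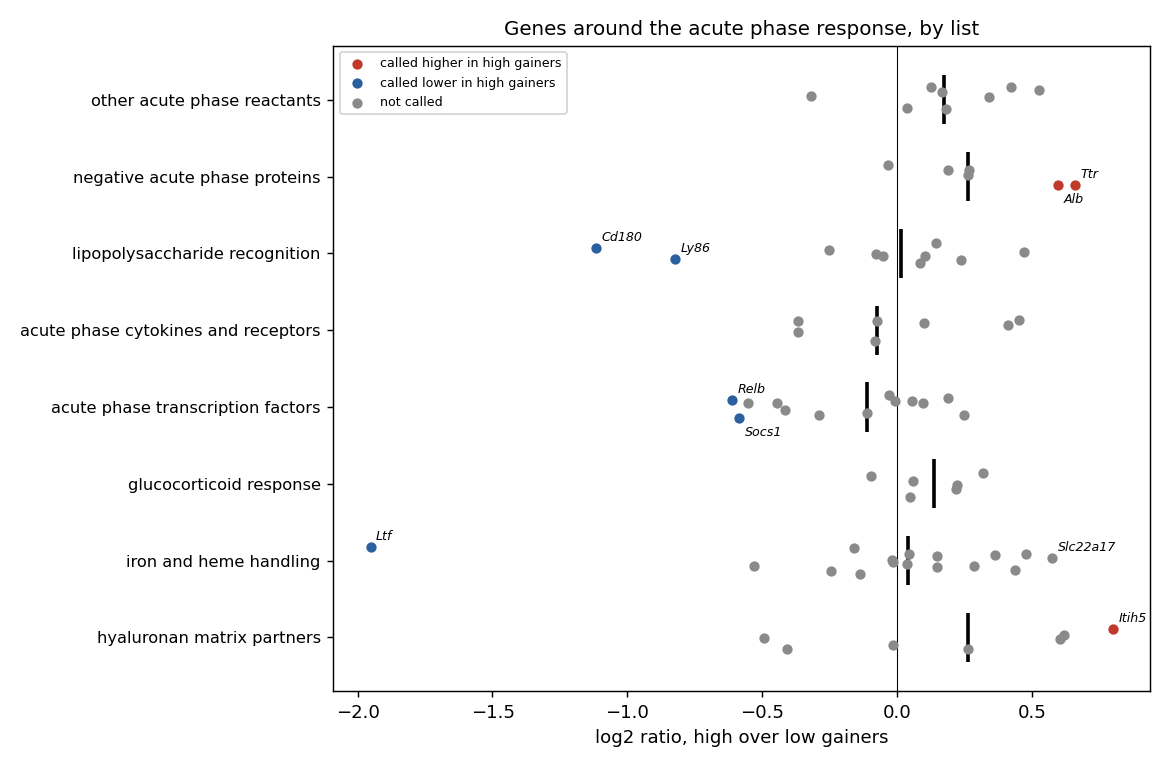
Log2 ratio of high over low gainers for every gene of the 8 pathway lists with values on all arrays. Each point is a gene, colored by its call, and black bars are list medians. The called genes are Alb, Ttr and Itih5 to the right, and Cd180, Ly86, Relb, Socs1 and Ltf to the left. Some uncalled genes, such as Ambp, Vcan, Nfkb2 and Mmp9, lie at ratios close to those of called genes.

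Lcn2 and Ltf are products of both neutrophils and glandular epithelium, and the markers of these cells were read beside them. Of 12 neutrophil markers 7 were measured, 0 were called higher and 1, Ltf itself, was called lower, with a median log2 of 0.49. S100a8, which encodes a calcium-binding protein of neutrophils, read 26285, 30196 and 26373 in high gainers and 16776, 19672 and 18116 in low gainers (log2 0.60, limma adjusted p = 0.01), and was not called. Mpo, the myeloperoxidase gene, had a log2 ratio of 0.49 (adjusted p = 0.0223). Camp, a granule peptide gene, read 4600, 5535 and 5919 in high gainers against 2107 and 2 blanks in low gainers. The summed neutrophil signal was 726607 to 863059 in high gainers and 773219 to 958950 in low gainers, ranges that overlap. Csf3r, a cytokine receptor gene, averaged 485726 in high gainers and 627316 in low gainers (log2 -0.37, limma adjusted p = 0.105, not called). Without it the sum was 281451 to 322972 in high gainers and 214545 to 249410 in low gainers, which do not overlap.

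Glandular epithelium markers were mostly lower in high gainers. Of 14 markers 6 were measured on all arrays, 3 were called lower and 0 higher, and the median log2 was -1.24. The keratin gene Krt18 read 2101, 2570 and 3686 in high gainers against 17775, 16467 and 16692 in low gainers (log2 -2.65, SE 0.20, limma adjusted p = 0.000309). Cdh1, which encodes E-cadherin, read 1607, 1962 and 1621 in high gainers against 8342, 6962 and 6492 in low gainers (log2 -2.07, SE 0.13, limma adjusted p = 0.000222), and Krt8 had a log2 ratio of -1.53. Epcam, an epithelial adhesion gene, had 1 value in high gainers, 1001, against 14220, 12152 and 11672 in low gainers, and the milk protein gene Csn3 read 2095 and 1996 with 1 blank in high gainers against 18731, 17117 and 17374 in low gainers. The summed epithelial signal was 89156 to 129168 in high gainers and 137426 to 164491 in low gainers. Most of it came from the claudin gene Cldn4, with 75092, 64343 and 93118 in high gainers and 72020, 91018 and 102821 in low gainers. Those groups overlap (log2 -0.19, limma adjusted p = 0.516). Cldn3 also overlapped between the pools and was not lower (log2 0.19). The part of these markers in the lower Lcn2 and Ltf was not tested.

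Other cells of the depot also differed between the pools. Of T lymphocyte markers 6 of 8 measured were called lower, and all 8 were below the low-gainer arrays on every high-gainer array (median log2 -1.61, summed signal 83003 to 97748 in high gainers and 251610 to 287344 in low gainers), and of skeletal muscle markers 8 of 9 were called lower (median log2 -0.85, summed signal 1656754 to 1731214 in high gainers and 2592322 to 2979036 in low gainers). The muscle count was 3 without high-gainer array 1 or 2 or low-gainer array 3, 5 without high-gainer array 3 or low-gainer array 2, and 6 without low-gainer array 1. Macrophage markers had 0 of 10 called by limma, with an unadjusted p under 0.05 for 3 higher and 1 lower (median log2 0.11), and endothelial markers 0 of 6, with 3 higher and 0 lower (median log2 0.27). Of 9 stromal progenitor markers Pi16 was called higher (log2 0.99) and Thy1 lower (log2 -0.74, a call kept in 0 of the 6 fits that left out 1 array). The only mesothelium marker measured, Krt7, was lower (log2 -2.04), and Upk3b and Wt1, which define that layer, were blank on all arrays.

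**Figure D5:**
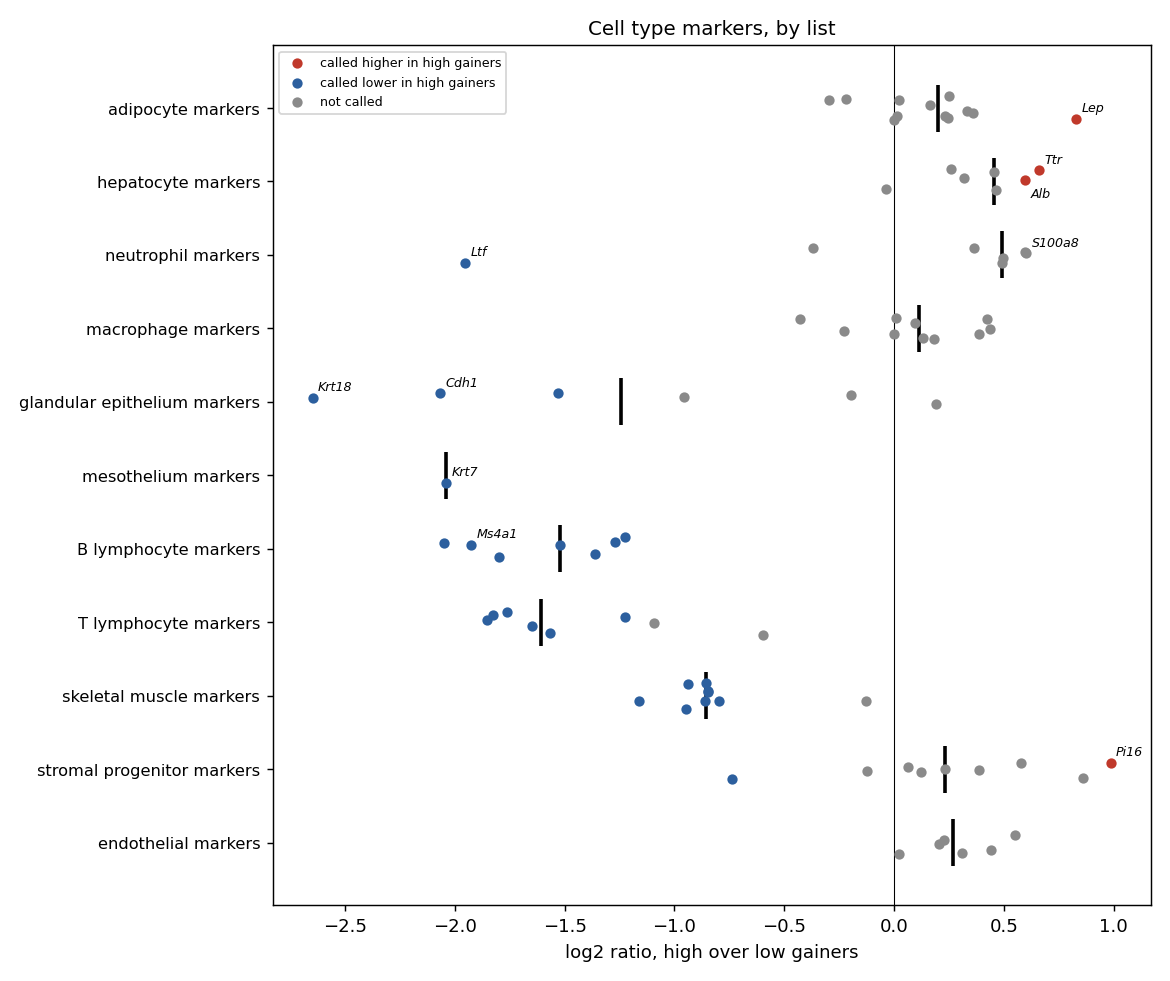
Log2 ratio of high over low gainers for every cell type marker with values on all arrays, by list. Each point is a gene, colored by its call, and black bars are list medians. Lymphocyte and muscle markers and all but 1 epithelial marker lie to the left of 0, and hepatocyte and neutrophil markers lie mostly to the right.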

How the data were processed

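Inguinal fat RNA of 1 pool of 8 high gainers and 1 pool of 8 low gainers was measured on 3 one-color arrays each, and samples were grouped by their titles. The authors transcribed 1 ug of RNA into DIG-labeled cRNA, read the arrays by chemiluminescence and applied quantile normalization, and deposited the intensities untransformed, on a linear scale. Quantile normalization fixes the distribution of every array, so that a signal depends on its rank and a general change of all transcripts cannot be seen. Blank cells were treated as not measured, and the methods' signal to noise and flag columns were not used here. The number of arrays limits the precision. The 15821 probes with values on all 6 arrays were log2 transformed and fitted by lmFit and eBayes of limma 3.58.1 under R 4.3.3, with Benjamini-Hochberg adjustment over all of them, and the procedure was tested on simulated data. A probe was called at an adjusted p under 0.01 and a fold of at least 1.5.

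Probes were named through a platform annotation (1 symbol for 14411 probes, several for 247, none for 18354), of which 14402 were matched through gene identifiers to RefSeq entries (GRCm38.p6). Probes with several symbols name no gene, and a gene with several probes is represented in lists by the brightest. No genome build of the probe design was given in the sources used. Members and lists were chosen with earlier results of these data known. Named were every member, the called genes of each pathway list or, with none, those of largest and smallest ratio, the 2 largest changes and blank defining markers of marker lists, and the 5 nearest profiles of Lbp and Lcn2. Other list genes named, such as Saa2, Cd14, Slc22a17, Cd163, Tnf, Il6, Stat3, Cebpb, Apoa1, Mpo, Csf3r and Camp, were chosen after their values were seen, and not every gene so selected is printed. As alternatives, the values were quantile normalized again, or fitted after centering on all probes or on adipocyte markers, after removal of the dimmest 33.3% of probes, with an offset of 2848 (the 10th percentile), an intensity trend, probes with 4 or more values, other fold limits, the methods' ANOVA, a replicate block and leaving out each array. The deviations of arrays of the same number correlated at r = 0.04, -0.11 and 0.27. Arrays of unlike number were not compared, so these values cannot decide whether the numbers pair the arrays, and the main fit used no pairing. The sums of hepatocyte markers without Alb and Ttr and of neutrophil markers without Csf3r were added after seeing the data.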

Additional observations from a re-analysis of the deposited data

Results flagged for a closer look

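Of the genes in the pathway lists, 3 had at least 1 blank in low gainers and values on all 3 high-gainer arrays that lay above every low-gainer value, and they were outside the comparison. Serpina6, which encodes the corticosteroid-binding globulin, a negative acute phase protein, averaged 2517 in high gainers, with 2573, 2814 and 2165, against 1941, a blank and 1529 in low gainers. Has3, which encodes a hyaluronan synthase, averaged 1376 in high gainers, with 1220, 1432 and 1475, against 754 and 2 blanks in low gainers. Hapln3, which encodes a protein that links hyaluronan to proteoglycans, averaged 3330 in high gainers, with 3240, 3368 and 3383, against 2454, 2909 and a blank in low gainers. All 3 signals are dim, and no fold or test is given. The rule looked only for values that were higher in high gainers. Rel, of the transcription factor list, went the other way, blank on all high-gainer arrays and at 1431, 2222 and 857 in low gainers. So did the values of Tnf given above.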

How the results depend on the processing

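Lbp, Saa3 and Lcn2 kept their direction under every alternative in which their probes were fitted. Of 106 comparisons of a member's ratio with its main value, 103 kept direction and call, 2 lost the call and 1 reversed. Many of these could not show a change of direction, since the other fold limits, the ANOVA, the intensity trend and the replicate block leave the ratio as it is. Hp, Cp and Hpx also had no call to lose. The reversal was Hpx, at -0.0695 relative to the adipocyte markers. With the offset, the log2 ratio was 1.54 for Lbp but shrank to 0.79 for Saa3 and -0.91 for Lcn2, with all of these calls kept. Without the dimmest 33.3% of probes the count of members was 1 higher and 0 lower, because Saa3 and Lcn2 are themselves dim and drop out. The methods' ANOVA after Benjamini-Hochberg adjustment also gave 1 higher and 0 lower, without Saa3 and Lcn2. Over all probes, 396 were called higher in high gainers and 632 lower. These counts were 164 and 1057 relative to the adipocyte markers, 98 and 402 at 2-fold, and 46 and 111 with the adjusted ANOVA. The replicate block gave 173 higher and 446 lower and changed no call of a member. Leaving out 1 array gave 105 to 319 higher and 368 to 493 lower, with the lowest counts of both without high-gainer array 1. The higher count moved by over 1.5 times without any array except low-gainer array 1, and the lower count without high-gainer array 1 or low-gainer array 3 (409). For the 15 of 38 list counts above 0, alternatives gave 270 values, of which 181 stayed within 1.5 times the main count and 89 did not. Dim probes, an equal spread over repeats of 1 RNA and 1 pool per group limit every value.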
